A study of Homo sapiens with 8 samples.

Results

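Integrins are the receptors through which cells hold on to the extracellular matrix, and 10 of their subunits are described here: the alpha subunits ITGA2, ITGA3, ITGA5, ITGA6 and ITGAV, and the beta subunits ITGB1, ITGB4, ITGB5, ITGB6 and ITGB8. They were chosen by gene symbol from the 20263 genes of one expression table, and each symbol is on a single row of it. A receptor is one alpha paired with one beta subunit. ITGB1 pairs with many alphas, ITGB4 pairs with ITGA6 alone, and ITGB5, ITGB6 and ITGB8 pair with ITGAV. The heads bind laminin, collagen, fibronectin, vitronectin or latent TGF-beta, while the short tails inside the cell are held by talin, kindlin and other adaptors that link them to actin. In liver tumour cells integrins are known for their part in adhesion, migration and growth signalling.

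The cells were MHCC-97H, an established line from a human hepatocellular carcinoma, and total RNA was sequenced after 24 hours. The DMSO arm was 4 libraries from cells given the solvent. The lenvatinib arm was 4 libraries, with 1 each at 40, 60, 80 and 100 µM of lenvatinib, a kinase inhibitor that acts on VEGF and FGF receptors, so no single dose has a replicate. The labels do not say whether the libraries came from separate cultures, so the p-values speak for the spread among the libraries alone, and that spread may be technical.

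The tails of 4 subunits are shown because the genes differ in base composition, along which the libraries differ, and because the tails hold the motifs that adaptors bind. Each line holds the last 120 coding bases, before the stop codon, of the principal transcript in GENCODE v29 (GRCh38), 5′ to 3′. Capitals mark the codons of the GFFKR motif of alpha tails, which lies just inside the membrane, and of the NPxY motifs of beta tails, which talin and kindlin bind.
ITGA5: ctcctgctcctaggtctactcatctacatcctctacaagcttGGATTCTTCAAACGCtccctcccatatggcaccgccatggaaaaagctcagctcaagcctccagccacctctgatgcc
ITGAV: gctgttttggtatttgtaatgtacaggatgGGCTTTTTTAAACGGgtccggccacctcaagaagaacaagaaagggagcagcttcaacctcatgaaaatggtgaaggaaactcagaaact
ITGB1: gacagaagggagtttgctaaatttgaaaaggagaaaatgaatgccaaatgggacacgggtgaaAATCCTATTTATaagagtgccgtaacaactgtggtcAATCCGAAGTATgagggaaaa
ITGB4: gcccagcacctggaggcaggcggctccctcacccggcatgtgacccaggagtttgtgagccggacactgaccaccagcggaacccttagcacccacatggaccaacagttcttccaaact
The ITGA5 and ITGAV ends hold 1 GFFKR each and the ITGB1 end holds 2 NPxY motifs. The long cytoplasmic part of ITGB4 has neither motif in its last 40 codons. Over the whole coding sequence GC content was 41.4% in ITGB1, 44.9% in ITGAV, 58.7% in ITGA5 and 63.3% in ITGB4.

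The genes lie on 7 chromosomes (GRCh38, as deposited, with the same gene bounds in GENCODE v29). ITGB4 spans chr17:75721328-75757818 and ITGA3 chr17:50055968-50090481, both on the plus strand, and ITGA5 spans chr12:54395261-54419460 on the minus strand. ITGB1 spans chr10:32900319-33005792 and ITGB5 chr3:124761948-124901418, both on the minus strand, while ITGA2 spans chr5:52989326-53094779 and ITGB8 chr7:20330702-20415754 on the plus strand. On chromosome 2 lie ITGA6 (chr2:172427354-172506282) and ITGAV (chr2:186590065-186680901), both on the plus strand, and ITGB6 (chr2:160099666-160200313) on the minus strand. The table gives 1 value per gene and none per exon or isoform. Exons of ITGA5, ITGA6, ITGAV, ITGB1 and ITGB8 overlap an annotated gene on the opposite strand, and without a stated strand setting reads of the partners cannot be told apart.

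Levels were first compared between genes per length, from the deposited TPM (a level scaled for transcript length). In the DMSO libraries ITGB5 stood highest at a median of 137.7 TPM (122.5 to 159.4), followed by ITGB1 at 99.9 (25.0 to 328), ITGA3 at 96.0 (84.4 to 103.2) and ITGA5 at 89.9 (72.0 to 96.4). The ranges of neighbours among these 4 overlapped. ITGB4 was next at 33.0 TPM (28.5 to 38.1), below every ITGA5 value and above every ITGA6 value.

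The remaining subunits were lower and overlapped their neighbours in the order: ITGA6 at 6.70 TPM (3.62 to 25.6), ITGAV at 4.61 (1.04 to 20.1), ITGA2 at 0.763 (0.0715 to 2.55) and ITGB8 at 0.238 (0.0800 to 1.34). ITGB6, the epithelial partner of ITGAV, had 0 reads in all 8 libraries. A count of 0 allows up to 3 counts, which is 0.0802 to 0.295 CPM (counts scaled to a common library total). With lenvatinib the order of medians was ITGB5 (112.7), ITGA3 (97.3), ITGB1 (87.9), ITGA5 (60.7), ITGB4 (14.2), ITGAV (4.43), ITGA6 (3.34), ITGA2 (0.606) and ITGB8 (0.274), so 2 pairs of neighbours with overlapping ranges had changed places.

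**Figure D1:**
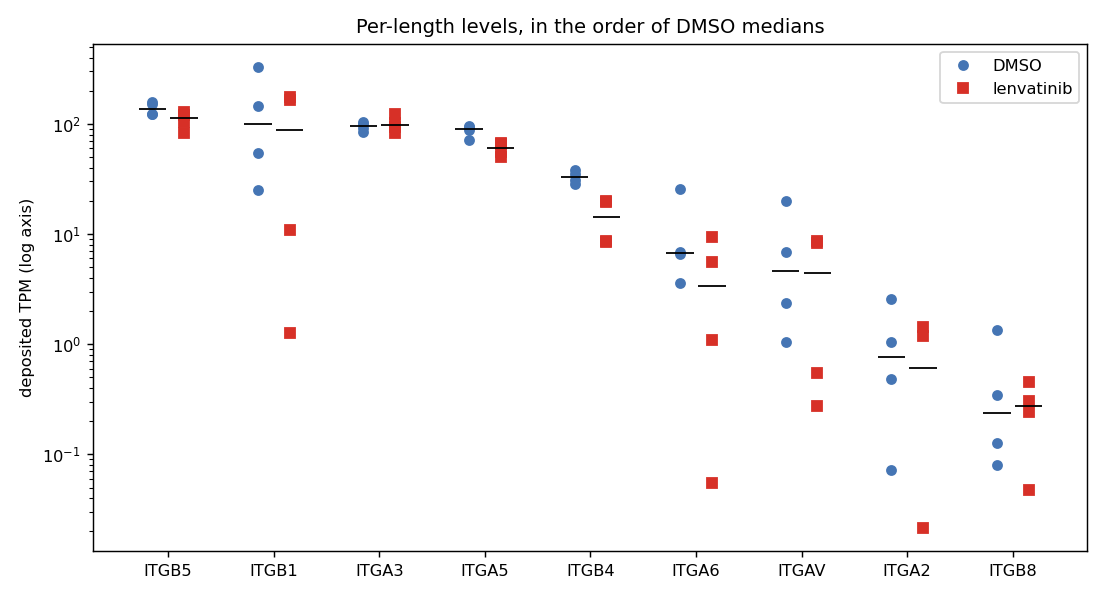
Deposited TPM (log axis) of 9 integrin subunits in the order of their DMSO medians, with 1 point per library (blue circles DMSO, red squares lenvatinib) and the median of each arm as a line. ITGB4 and ITGA5 are the subunits whose arms do not overlap, ITGB1 spreads from 1.27 to 328 TPM, and the ITGA2 value at 60 µM is 0 and cannot be drawn.

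The libraries held 10181973 to 37384578 counts, with the fewest at 60 µM. They differed mainly along the GC content of genes. The GC slope of a library (how far its log2 levels depart from the average library for every 10 points more GC) was 0.28, -0.50, -0.99 and -0.10 in DMSO libraries 1 to 4, and 0.67, 1.82, -0.58 and -0.60 at 40, 60, 80 and 100 µM. The 60 µM library stood apart in both depth and slope. Each comparison is therefore given by 2 edgeR fits over all genes, one with no covariate and one with the GC slope as a covariate. At 40 and 60 µM, whose slopes lay above every DMSO slope, the fit with the covariate reaches beyond the DMSO libraries. Levels from here on are CPM scaled by TMM (an edgeR factor that evens out library composition), which compare libraries and not genes, and fold changes are log2, lenvatinib over DMSO, ± SE.

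With no covariate, 0 of 9 tested subunits were called at a Benjamini-Hochberg adjusted p under 0.05, where 0% of the 11827 genes tested were called (523 had an unadjusted p under 0.05, and DESeq2 called 94). The members' log2 fold changes had a median of -0.59 and were negative in 8 of 9 (7 with DESeq2 size factors, where ITGB5 was at 0.022), and those of all genes had a median of -0.11 and were negative in 56.2%. With the GC slope as a covariate, ITGB4 and ITGA5 were called, both lower with lenvatinib. That is 2 of 9, where 1.78% of genes tested were called lower and 3.26% in either direction (175 higher and 211 lower). The members' median was then -0.24, against -0.06 over all genes. The number of genes called in this fit moved with single libraries: it was 27, 66, 203 and 17 without DMSO library 1, 2, 3 or 4, and 1008, 2755, 0 and 7 without the 40, 60, 80 or 100 µM library (without the 80 µM library, 1293 genes had an unadjusted p under 0.05).

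**Figure D2:**
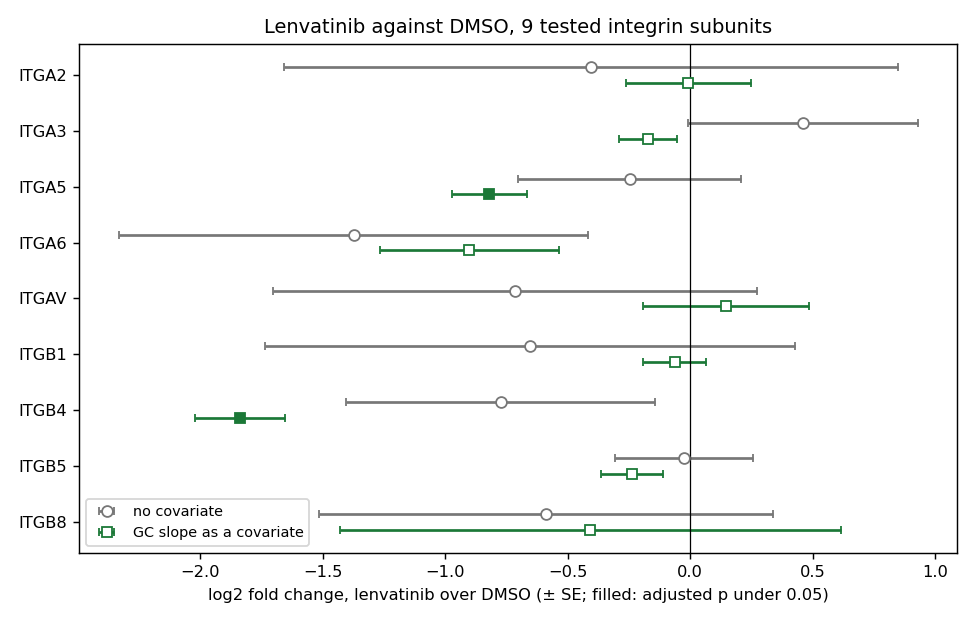
Log2 fold change of each tested subunit with lenvatinib against DMSO (points, bars ± SE), with no covariate (grey circles) and with the GC slope as a covariate (green squares), filled where the edgeR adjusted p was under 0.05. ITGB4 at -1.84 and ITGA5 at -0.82 are the filled points, both in the fit with the covariate, and the bars of ITGB1 shrink from 1.08 to 0.13.

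ITGB4, the laminin-binding subunit that anchors hemidesmosomes to keratin filaments, was the subunit with the largest called difference. Its level was 144.5, 79.2, 59.0 and 110.2 CPM in DMSO libraries 1 to 4, and 74.2, 117.7, 17.7 and 20.9 CPM at 40, 60, 80 and 100 µM. The 80 and 100 µM libraries lay below every DMSO library, while those at 40 and 60 µM lay inside the DMSO range, so the arms overlapped. The arm means were 98.2 ± 37.3 and 57.6 ± 47.7 CPM (SD, n = 4 each).

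The log2 fold change of ITGB4 was -0.77 ± 0.63 with no covariate (edgeR adjusted p = 0.874) and -1.84 ± 0.18 with the GC slope as a covariate (adjusted p = 0.00509). Without the 60 µM library the second value was -1.80 ± 0.13 (adjusted p = 0.000169). The call was lost without the 80 µM library (-1.68, adjusted p = 0.0538), without the 100 µM library (-1.83, adjusted p = 0.0657) and with offsets smooth in GC content in place of the covariate (-1.51, adjusted p = 0.0959). With no covariate and only the 80 and 100 µM libraries the fold change was -2.32 ± 0.42 (adjusted p = 0.310). Over 20 alternatives it was called in 17, with log2 fold changes from -1.98 to -1.51 and adjusted p from 1.72e-28 to 0.0959. In bulk RNA, fewer cells that express a gene and less of its RNA per cell cannot be told apart, here or for any subunit below.

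How the arms of ITGB4 lay depended on the scale. By deposited TPM its values were 38.1, 30.9, 28.5 and 35.1 in DMSO and 19.6, 20.1, 8.69 and 8.55 at 40, 60, 80 and 100 µM, with all 4 lenvatinib libraries below all DMSO libraries. The arms were also apart by CPM of library totals (78.1 to 123.4 in DMSO, 22.6 to 71.8 with lenvatinib). On that scale 3.49% of genes tested had every lenvatinib value below the DMSO range, and by TPM 4.0% did. By TMM-scaled CPM 0 of 9 subunits had arms that did not overlap, where 3.38% of genes were lower and 3.08% higher without overlap.

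ITGA6, the alpha subunit that ITGB4 needs to form its receptor and that also pairs with ITGB1, was called in neither fit. It stood at 14.5, 16.2, 53.5 and 23.4 CPM in DMSO and at 4.96, 0.322, 12.6 and 23.3 CPM at 40, 60, 80 and 100 µM. The 40, 60 and 80 µM libraries were below every DMSO library and the 100 µM library was not, and the 60 µM value rests on 2 reads. The log2 fold change was -1.37 ± 0.96 (edgeR adjusted p = 0.874) with no covariate and -0.90 ± 0.37 (unadjusted p = 0.0378, adjusted p = 0.213) with it. Per length, ITGB4 was above ITGA6 in 7 libraries, by ratios of TPM from 1.11 to 366, and below it at 100 µM, at a ratio of 0.911.

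ITGA5, which with ITGB1 forms the main fibronectin receptor, was the other called subunit. Its level was 292, 184, 120.5 and 254 CPM in DMSO and 227, 291.5, 103.0 and 95.4 CPM at 40, 60, 80 and 100 µM. As for ITGB4, the 80 and 100 µM libraries lay below all DMSO libraries and the 40 and 60 µM libraries did not. The arm means were 213 ± 76.1 and 179 ± 96.1 CPM (SD, n = 4 each).

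The log2 fold change of ITGA5 was -0.25 ± 0.46 with no covariate (edgeR adjusted p = 0.876) and -0.82 ± 0.15 with it (adjusted p = 0.0321), or -0.76 ± 0.07 without the 60 µM library (adjusted p = 0.000427). It was called in 14 of 20 alternatives, with adjusted p from 8.37e-14 to 0.639. The call was lost without DMSO library 1, 2 or 4 (adjusted p = 0.131, 0.0984 and 0.165), without the 80 or the 100 µM library (0.214 and 0.211), and with smooth GC offsets, which gave -0.38 (0.639). By deposited TPM the arms of ITGA5 did not overlap: 92.8, 87.0, 72.0 and 96.4 in DMSO against 66.1, 67.3, 55.3 and 50.03 at 40, 60, 80 and 100 µM. ITGB4 and ITGA5 were thus 2 of 9 subunits lower without overlap on that scale, beside the 4.0% of genes given above. By CPM of library totals the arms of ITGA5 overlapped (159.4 in DMSO library 3, 176.5 and 177.9 at 40 and 60 µM).

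**Figure D3:**
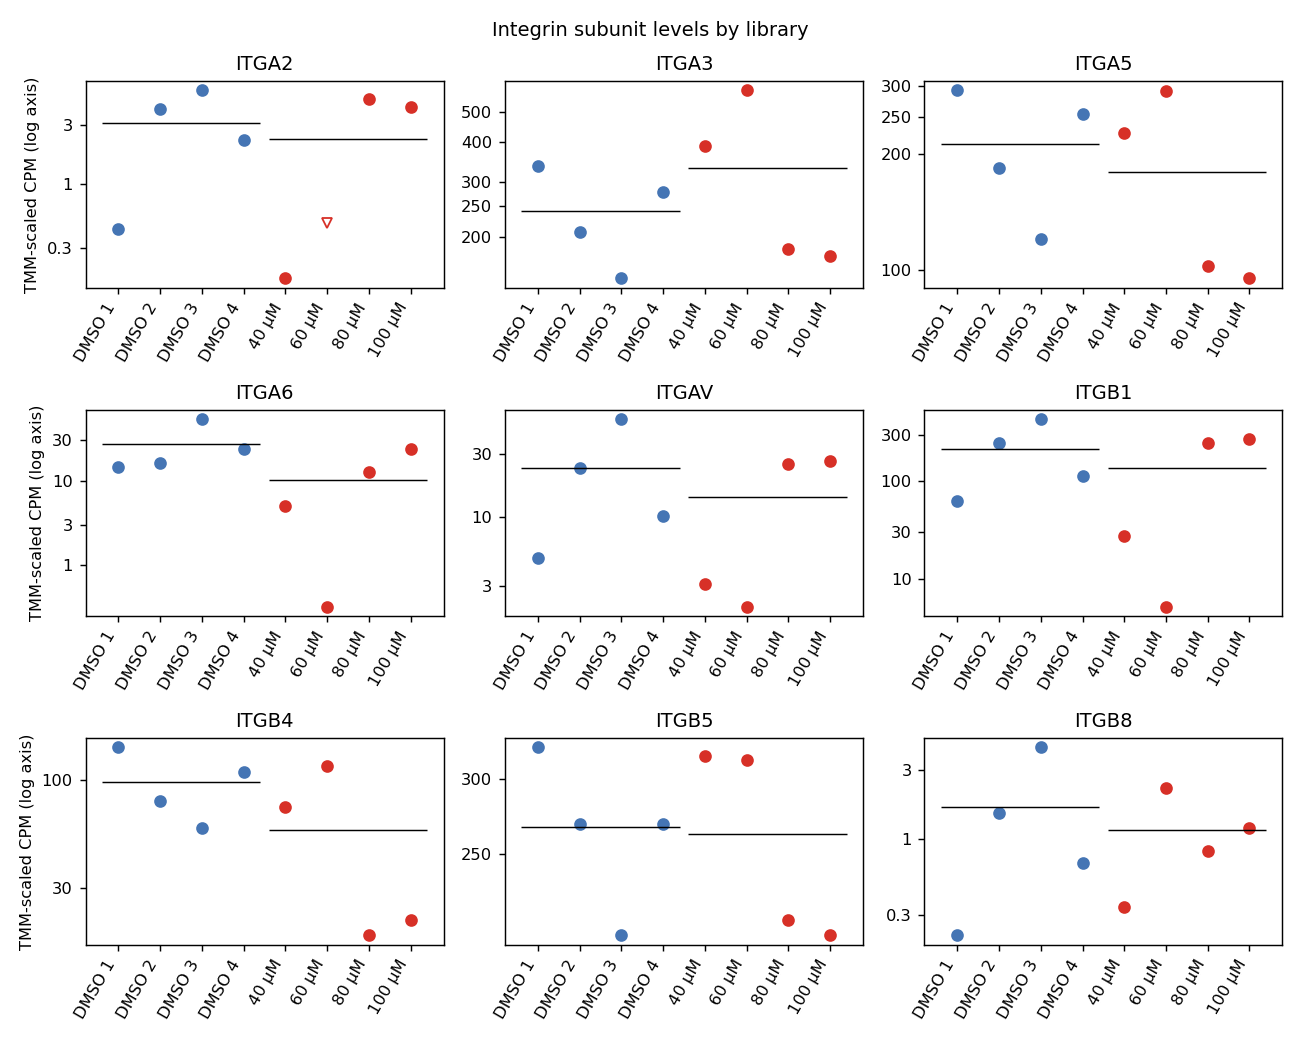
TMM-scaled CPM (log axes that differ between panels) of 9 subunits in each library, with DMSO in blue, lenvatinib in red and the mean of each arm as a line. ITGB4 and ITGA5 are lowest at 80 and 100 µM, whereas ITGB1 and ITGAV are lowest at 40 and 60 µM. The open triangle for ITGA2 at 60 µM marks the limit of 3 counts for a value of 0.

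ITGA3, the alpha subunit of a laminin receptor, was not called. It stood at 336, 206, 147 and 278 CPM in DMSO and at 389, 586, 182 and 173 CPM at 40, 60, 80 and 100 µM. The 40 and 60 µM libraries lay above the DMSO range and the other two inside it. In the fits its log2 fold change was 0.46 ± 0.47 with no covariate and -0.17 ± 0.12 with it (edgeR adjusted p = 0.874 and 0.450), so its sign differed between the fits.

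ITGA2, the alpha subunit of a collagen receptor, was near the limit of detection in several libraries. Its read counts were 12, 144, 239 and 77 in DMSO and 4, 0, 233 and 185 at 40, 60, 80 and 100 µM. The 80 and 100 µM libraries lay inside the DMSO range and the 40 µM library below it. The 60 µM library, with 0 reads at the lowest depth, cannot be placed against the DMSO minimum. In the fits ITGA2 had a log2 fold change of -0.41 ± 1.25 with no covariate and -0.01 ± 0.26 with it (edgeR adjusted p = 0.910 and 0.994).

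ITGAV, the alpha subunit of the vitronectin and latent TGF-beta receptors, was not called. It was at 4.93, 23.6, 55.2 and 10.1 CPM in DMSO and at 3.12, 2.09, 25.2 and 26.4 CPM at 40, 60, 80 and 100 µM. The 2 lower doses were below all DMSO libraries and the 2 higher doses inside their range. For the arms as a whole, the fold change (log2) was -0.72 ± 0.99 with no covariate and 0.15 ± 0.34 with it (edgeR adjusted p = 0.874 and 0.858).

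Of the betas that pair with ITGAV, ITGB5, a vitronectin receptor subunit, was the steadiest of all tested members. It stood at 324, 269, 205 and 269 CPM in DMSO and at 318, 315, 213 and 205 CPM at 40, 60, 80 and 100 µM, with overlapping arms. Its log2 fold change was -0.02 ± 0.28 with no covariate and -0.24 ± 0.13 with it (edgeR adjusted p = 0.975 and 0.339). DESeq2 with the covariate called it lower (adjusted p = 0.0413), as no other alternative did. Per length, ITGB5 was 7.59 to 299 times ITGAV over the 8 libraries. The highest ratio, at 60 µM, rests on 13 ITGAV reads. The GC content of the longest transcript was 54.25% for ITGB5 and 38.25% for ITGAV.

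ITGB8, the beta subunit that holds latent TGF-beta with ITGAV, had 6 to 179 reads per library. Its level was 0.217, 1.52, 4.30 and 0.684 CPM in DMSO and 0.342, 2.25, 0.836 and 1.20 CPM at 40, 60, 80 and 100 µM, all lenvatinib values lying inside the DMSO range. ITGB8 had log2 fold changes of -0.59 ± 0.93 with no covariate and -0.41 ± 1.02 with it (edgeR adjusted p = 0.874 and 0.870). The SE with the covariate was 0.44 without the 60 µM library (-0.45). An SE of 1.02 is wider than the difference called for ITGA5.

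ITGB1, the common beta subunit of the collagen, laminin and fibronectin receptors, spread most widely among the abundant members. Its level was 62.3, 249, 435 and 113 CPM in DMSO and 27.2, 5.15, 243 and 269 CPM at 40, 60, 80 and 100 µM. The 60 µM library held 32 reads of it and DMSO library 3 held 18092. The 40 and 60 µM libraries lay below the DMSO range and the 80 and 100 µM libraries inside it. Between arms ITGB1 had a log2 fold change of -0.66 ± 1.08 with no covariate and -0.06 ± 0.13 with it (edgeR adjusted p = 0.874 and 0.836).

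The RNA of ITGB1 was set beside that of the 5 alpha subunits, all of which can pair with it. Their summed level was 200.8, 193.0, 204.6 and 207 TPM in DMSO and 169.4, 189.8, 163.5 and 152.4 at 40, 60, 80 and 100 µM. All lenvatinib sums thus lay below all DMSO sums, the nearest being 189.8 at 60 µM and 193.0 in DMSO library 2. ITGA5, whose own arms did not overlap by TPM, is part of the sum, so this is no separate result. ITGA3 and ITGA5 made up 76.4% to 99.8% of the sum over the 8 libraries. The ratio of ITGB1 to that sum was 0.124, 0.754, 1.60 and 0.263 in DMSO and 0.0639, 0.00668, 1.01 and 1.14 at 40, 60, 80 and 100 µM. The ratio thus varied widely among DMSO libraries alone, and with lenvatinib it was below the DMSO range at the 2 lower doses and inside it at the 2 higher ones. These are ratios of RNA, and the GC content of the longest transcript was 40.0% for ITGB1 against 61.3% for ITGA3 and 54.5% for ITGA5.

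Most AT-rich members were lower, and GC-rich members higher, in libraries with a higher GC slope. This relation was looked at after the data had been seen, over 9 subunits and 8 libraries, with exact 2-sided permutation tests adjusted by Benjamini-Hochberg over the 9. The slope is itself computed from all tested genes, members included, as the trend of level with GC content. A relation in this direction is thus largely built in, and the p-values are no separate evidence about integrins. ITGB1 had r = -0.998 (exact p = 4.96e-05, adjusted 0.000149), rho = -0.976 (exact p = 0.000397, adjusted 0.000893) and r = -0.994 without the 40 and 60 µM libraries, whose slopes are farthest from the median. The other AT-rich alphas were alike, with r = -0.976 for ITGA2 (exact permutation p = 7.44e-05, adjusted 0.000167), -0.947 for ITGAV (2.48e-05, adjusted 0.000112) and -0.935 for ITGA6 (0.00144, adjusted 0.00259). Their rho were -0.976, -1.0 and -0.762 (exact permutation p = 0.000397, 4.96e-05 and 0.0368).

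Without the 40 and 60 µM libraries the r of ITGA2, ITGAV and ITGA6 were -0.925, -0.999 and -0.586, so that of ITGA6 rests in part on those libraries. The GC-rich ITGA3 went the other way (r = 0.980, exact permutation p = 2.48e-05, adjusted 0.000112; rho = 1.0, exact p = 4.96e-05), also without those libraries (r = 0.987). ITGB5 had r = 0.799 (exact permutation p = 0.0106, adjusted 0.0160; rho = 0.881, p = 0.00724) and ITGA5 r = 0.753 (exact permutation p = 0.0236, adjusted 0.0304; rho = 0.810, p = 0.0218), with r of 0.894 and 0.836 without the 2 libraries. ITGB4, the most GC-rich member at 63.7%, gave r = 0.556 (exact permutation p = 0.141, adjusted 0.159; rho = 0.714, p = 0.0576), and 0.614 without them. Within the DMSO arm its level rose in the order of the slope (59.0, 79.2, 110.2 and 144.5 CPM in libraries 3, 2, 4 and 1), and the lenvatinib libraries of high slope (74.2 and 117.7 CPM) stood above those of low slope (17.7 and 20.9 CPM). The arms of 4 libraries each are too few for an r of their own. ITGB8 gave r = -0.206 (exact permutation p = 0.629; rho = -0.405, p = 0.327) over all 8 libraries and -0.941 without the 40 and 60 µM libraries, so its weak pooled value rests on those. An absolute r over 0.9 was reached by 5 of 9 subunits and by 55.6% of all tested genes.

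**Figure D4:**
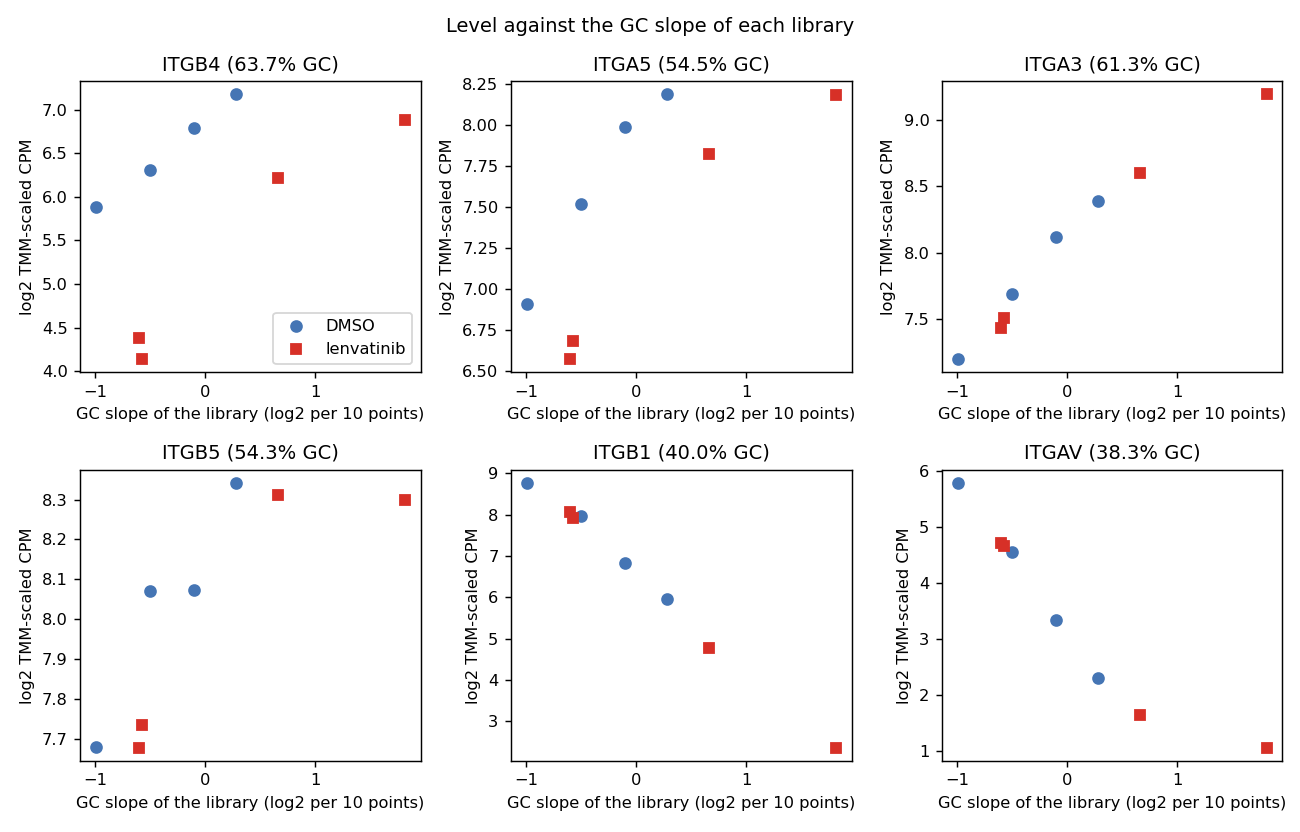
Log2 TMM-scaled CPM of 6 subunits (vertical axes differ) against the GC slope of each library, with DMSO as blue circles and lenvatinib as red squares and the GC content of the longest transcript in each title. For ITGB1 and ITGAV the libraries of both arms lie along a shared falling course. For ITGB4 each lenvatinib library lies below the DMSO library nearest in slope, and the same holds for ITGA5 with smaller gaps, down to almost none at 60 µM. The 40 and 60 µM slopes (0.67 and 1.82) exceed the highest DMSO slope (0.28), so no DMSO library matches them.

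Libraries of like GC slope can be set side by side, without a test, since DMSO library 2 (-0.50) is close to the 80 µM (-0.58) and 100 µM (-0.60) libraries. ITGB4 stood at 79.2 CPM in the former against 17.7 and 20.9 in the latter, and ITGA5 at 184 against 103.0 and 95.4. The values of ITGB1 were 249 against 243 and 269, and those of ITGAV 23.6 against 25.2 and 26.4. ITGB5 was at 269 against 213 and 205, ITGA3 at 206 against 182 and 173, and ITGB8 at 1.52 against 0.836 and 1.20. ITGA6 was at 16.2 against 12.6 and 23.3, and ITGA2 at 4.05 against 4.87 and 4.19. In these 3 libraries ITGB4, ITGA5, ITGB5, ITGA3 and ITGB8 were lower at both lenvatinib doses, while ITGB1 and ITGAV were near their DMSO level. ITGB8 had only 54 reads against 40 and 53. The share of all genes lower in the same way was not counted, so the number of such members is a description. ITGB4 and ITGA5 were called in a fit that used these libraries, so their values here are no separate support.

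No subunit was called for a change with dose, which with 1 library per dose does not show that levels stayed the same. The dose slope, a log2 change for each step of 20 µM among the lenvatinib libraries, was called for 0% of genes by edgeR (875 had an unadjusted p under 0.05, and the lowest adjusted p was 0.295). It was positive for ITGA2 (1.93 ± 0.81), ITGB1 (1.37 ± 0.59), ITGAV (1.25 ± 0.56), ITGA6 (0.87 ± 0.48) and ITGB8 (0.24 ± 0.70), and negative for ITGB4 (-0.86 ± 0.34), ITGA3 (-0.55 ± 0.27), ITGA5 (-0.54 ± 0.25) and ITGB5 (-0.25 ± 0.16). With the GC slope as a covariate the same slopes lay between -0.22 for ITGB4 and 0.31 for ITGA2. The 40 and 60 µM libraries have positive GC slopes and the 80 and 100 µM libraries negative ones, so the lower against the higher doses and the GC axis cannot be told apart.

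The genes whose log2 CPM ran most like that of ITGB4 over the 8 libraries were LY6D (Pearson r = 0.998), ETV4 (0.996) and LCN2 (0.995). LY6D is a surface protein of epithelial cells, ETV4 an ETS transcription factor and LCN2 a secreted iron-siderophore carrier. With the GC slope taken out of both they were LY6D (0.998), NTSR1 (0.997) and TBKBP1 (0.996). For ITGA5 the nearest were PPP1R13L, TRAP1 and WDR4 (0.995, 0.995 and 0.992), and with the slope taken out GNG5, EIF3F and CCDC86 (0.996, 0.994 and 0.993). These genes were picked as the highest among the 11827 tested, and the 8 libraries share the GC axis, so the values are a description. Between the members themselves, ITGB4 and ITGA5 had r = 0.929, and 0.934 with the slope taken out. Other pairs were higher: ITGA2 with ITGB1 had 0.983, ITGAV with ITGB1 0.951 and ITGA5 with ITGB5 0.945. With the slope taken out ITGAV and ITGB8 had 0.949. ITGB4 and ITGA5 were both called lower with lenvatinib, so a high r between them is not a separate result.

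Other genes of the pathway were counted by role in the fit with the GC slope as a covariate. With no covariate 0 were called in any list. Of the 16 other integrin subunits 4 were tested and 0 called, among them ITGAE (-0.23 ± 0.16), ITGA2B (0.33 ± 0.27) and the collagen-binding ITGA1 (-0.28 ± 0.24). ITGA4, ITGA8 and ITGA11 had 0 reads. Beside the counts that follow, 1.78% of all genes tested were called lower and 3.26% in either direction in this fit. Of 20 tested matrix ligands 1 was called higher, the laminin chain LAMB2 (0.54 ± 0.10, edgeR adjusted p = 0.0329), and 1 lower, TGFBI, an adhesive matrix protein. TGFBI stood at 110.7, 81.4, 68.9 and 99.6 CPM in DMSO and at 52.8, 27.7, 22.1 and 25.9 CPM at 40, 60, 80 and 100 µM, with arms that did not overlap (-1.67 ± 0.28, adjusted p = 0.0236). VTN, which encodes vitronectin, had -1.38 ± 0.34 (adjusted p = 0.0656). The median of the ligands was 0.05, against -0.06 over all genes.

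On the latent TGF-beta axis that ITGAV receptors act on, 0 of 9 tested genes were called higher and 2 lower, where 1.78% of all genes were called lower. The ligand TGFB1 had -0.93 ± 0.14 (edgeR adjusted p = 0.0177) with the covariate and 0.34 ± 0.75 without it, its level ranging from 112 to 462 CPM in DMSO and from 99.8 to 847 CPM with lenvatinib. The receptor TGFBR1 had -0.77 ± 0.16 (adjusted p = 0.0455). TGFB3 was not called (0.57 ± 0.27, adjusted p = 0.287). The median over this list was 0.00.

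Of 27 tested adaptors of integrin tails 1 was called, and lower: TNS4, a tensin that binds beta tails. That share is near the 3.26% of all genes called. It stood at 84.6, 52.7, 53.5 and 75.5 CPM in DMSO and at 31.9, 42.3, 11.9 and 14.5 CPM at 40, 60, 80 and 100 µM, and its arms did not overlap (-2.02 ± 0.17, edgeR adjusted p = 0.00395). The focal adhesion proteins ZYX (-0.68 ± 0.16) and PXN (-0.60 ± 0.14) missed the threshold (adjusted p = 0.0583 and 0.0618). The list's median was -0.18.

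Of 4 tested inactivators, which keep integrin tails from talin or take receptors in, 0 were called: SHARPIN had 0.34 ± 0.11, ITGB1BP1 -0.31 ± 0.18 and DAB2 -0.28 ± 0.22. Of 3 tested hemidesmosome partners of ITGA6 and ITGB4, 0 were called. The tetraspanin CD151 had -0.45 ± 0.12 (edgeR adjusted p = 0.0837), the plakin DST -0.91 ± 0.46 and the plakin PLEC -0.14 ± 0.19. Of 11 tested membrane partners 0 were called, the nearest being the tetraspanin CD82 (-0.67 ± 0.15, adjusted p = 0.0551), the syndecan SDC1 (-1.11 ± 0.28, 0.0752) and the urokinase receptor PLAUR (-0.87 ± 0.34, 0.197).

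The calls of these genes also rested on single libraries. Without the 80 µM library none of TNS4, TGFBI, TGFB1, TGFBR1 and LAMB2 was called (edgeR adjusted p = 0.0532, 0.195, 0.160, 0.187 and 0.256), and without the 100 µM library none was either (0.0514, 0.169, 0.141, 0.257 and 0.141). TGFBI and TGFB1 were also not called without DMSO library 1, 2 or 4, and TGFBR1 and LAMB2 in further settings. With smooth GC offsets in place of the covariate TGFB1 was at -0.41 (adjusted p = 0.663) and TGFBI at -1.35 (0.138), and TGFBR1 (-0.84, 0.195) and LAMB2 (0.56, 0.147) were not called either.

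The labelled cell type was checked against its markers. The epithelial keratins KRT8 and KRT18 had 1241566 and 790730 reads over the 8 libraries, whereas the hepatocyte genes ALB and APOA1 had 6 and 10 reads, all at 60 µM, SERPINA1 had 99, EPCAM 125 and CDH1 232. Of the 3 tested genes of this list 1 was called, and lower, in the fit with the GC slope as a covariate, and the list's median was -0.93. It was HNF4A, a hepatocyte transcription factor, whose level was 8.73, 9.83, 6.87 and 8.24 CPM with the solvent against 3.42, 1.29, 1.00 and 1.40 CPM at 40, 60, 80 and 100 µM, with arms that did not overlap (-2.42 ± 0.40, edgeR adjusted p = 0.0229). KRT8 (-0.87 ± 0.24) and KRT18 (-0.93 ± 0.25) were not called (adjusted p = 0.0913 and 0.0872). The part of these shifts in the integrin values was not tested. Markers of other cells that carry integrins were at or near 0: PTPRC, CD3E, KDR, GP9, PF4 and PPBP had 0 reads and PECAM1 had 4. CD68, a lysosomal protein on the leukocyte list, was called lower (-1.19 ± 0.20, edgeR adjusted p = 0.0240) with overlapping arms. HNF4A was called in 14 of 20 alternatives and CD68 in 13, neither of them without the 80 or the 100 µM library, without DMSO library 1, 2 or 4, or with smooth GC offsets. Of 6 fibroblast markers COL1A2 had 0 reads, while PDGFRB had 8051, COL1A1 7853 and DCN 3652. The summed fibroblast list was at 75.6 to 84.2 CPM in DMSO and 61.6 to 95.3 with lenvatinib, with overlapping arms, and its part in the results was not tested.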

How the data were processed

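RNA sequencing of 8 MHCC-97H libraries (4 DMSO, 4 lenvatinib) was taken from one table. Per the file headers, the values deposited by the authors are read counts per gene, TPM and FPKM; the submitters' processing notes name FastQC, HISAT2, StringTie, bedtools and the GRCh38 build. Not given in the sources used here were tool versions, the gene annotation, the library kit and its strand setting. Counts were tested as deposited, TPM gave levels per length, and FPKM served as its alternative.

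Genes averaging 1 CPM or more were kept (11827, with 99.9% of counts) and fitted with edgeR 4.0.16 under R 4.3.3 (TMM, robust quasi-likelihood), lenvatinib against DMSO, with 6 residual degrees of freedom, or 5 with the libraries' GC slopes as a covariate. The dose slope had its centre at 70 µM and a term for the arm. Calls are genes whose Benjamini-Hochberg adjusted p over all genes tested is under 0.05. GC content is that of the longest GENCODE v29 transcript, matched by Ensembl ID for 20224 of 20263 genes (4 tested genes had none). Log2 CPM used a prior count of 2. Intervals and limits from counts of 0 cover counting error only. The fits were tried on simulated counts whose GC trend was linear in each library's own slope, with a dispersion (spread) shared by all genes. That setting suits the fit with the covariate and need not hold for these data.

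The 10 members and all lists were chosen with earlier results of these data known. Named are all members, up to 3 members per pathway list (not of the marker lists) with the smallest unadjusted p in the fit with the covariate plus every called member, and the 3 genes most correlated with each called subunit. DESeq2 1.42.0, limma-voom (limma 3.58.1), other scalings, filters and GC corrections, and leaving out each library were tried as alternatives.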

Additional observations from a re-analysis of the deposited data

How the results depend on the processing

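Over the alternatives, the members' values kept their direction and side of the threshold in 147 of the cases with no covariate, 147 with the covariate and 86 for the dose slope, and they reversed in 13, 20 and 2. With the covariate a call was also lost in 9 cases, all of ITGB4 or ITGA5, and gained in 2. Most cases that stayed the same were of members not called. With no covariate, a fit with only the 80 and 100 µM libraries gave 0.56 for ITGA2, -0.41 for ITGA3, 0.17 for ITGAV and 0.29 for ITGB1, and ITGB5 was at 0.021 by DESeq2 and 0.022 with its size factors. With the covariate, ITGA2 was at 0.01 by DESeq2, 0.29 by limma-voom, 0.009 with DESeq2 size factors, 0.11 by library totals, 0.067 by upper-quartile scaling and 0.30 with only the 80 and 100 µM libraries. ITGB1 was at 0.055 by library totals, 0.013 by upper-quartile scaling and 0.062 with only those 2 doses. Smooth GC offsets gave 1.71 for ITGB8, 0.98 for ITGB1BP1 and 0.03 for PLEC, and library totals gave a dose slope of 0.069 for ITGB5.

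Leaving out each library in turn gave, with no covariate, -1.04 to 0.062 for ITGA2, -1.20 to 0.15 for ITGAV, -0.13 to 0.084 for ITGB5 and -1.05 to 0.47 for ITGB8. The other subunits kept their sign but moved widely there: -1.22 to -0.05 for ITGB1, 0.04 to 0.67 for ITGA3, -0.58 to -0.04 for ITGA5, -1.39 to -0.47 for ITGB4 and -2.15 to -0.80 for ITGA6. With the covariate it gave -0.41 to 0.32 for ITGA2, -0.064 to 0.29 for ITGAV, -0.13 to 0.001 for ITGB1 and -1.05 to 0.30 for ITGB8, and for the dose slope of ITGB8 -0.44 to 0.62. The causes were not tested.

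The count of genes called went from 0 to 94 by DESeq2 with no covariate. With the covariate, 386 became 2038 by DESeq2, 830 by limma-voom, 1015 with DESeq2 size factors, 674 by library totals, 254 with no filter, 2468 with only the 80 and 100 µM libraries and 7 with smooth GC offsets, and 0 to 2755 without single libraries. The share of higher calls was 45.3%, against 62.5% by library totals and 32.2% without the 40 µM library. Library totals moved the median of all genes from -0.06 to 0.05, and the members' values are read relative to it. A filter at 5 CPM left ITGA2 and ITGB8 with no value. With the number in the sample titles as a replicate block, 0 genes were called with no covariate and 232 with it. In the latter ITGB4 (-1.81) and ITGA5 (-0.78) were called, as was ITGA6 (-1.02 ± 0.21, edgeR adjusted p = 0.0426), and ITGA2 was at 0.029. The deviations of same-numbered DMSO and lenvatinib libraries from their arm means had correlations of 0.627, -0.464, 0.843 and -0.608. No DMSO library correlated best with its own number. The libraries differ mainly along GC content, so these values cannot tell whether the number marks a pairing. The order of the levels per length kept all 10 places by FPKM and 7 to 10 of them without single DMSO libraries. ITGA2 and ITGB8 rest on the fewest reads, 0 to 239 per library.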

Other observations

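The length that the deposited values imply for a gene, its count divided by its FPKM and the library total, was not constant between libraries. It spanned 4461 to 10596 bases for ITGB8 (2.38 times) and 6728 to 11729 bases for ITGA2 (1.74 times), and at most 1.24 times for the other 7 subunits with reads. The levels per length of ITGB8 and ITGA2 therefore carry differences that are not in their counts.

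For ITGB4, the implied length was 6218, 6191, 6178 and 6150 bases in DMSO and 5576, 6635, 5593 and 6534 bases at 40, 60, 80 and 100 µM. The DMSO values lay close together and the lenvatinib values on both sides of them. The source of these differences was not tested.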
